A study of Mus musculus with 24 samples.

Results

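Germinal center (GC) B cells sorted at the peak of the response were compared with GC B cells sorted early in it, in the mouse spleen. The comparison takes the 3 libraries titled peak GC and the 3 titled early GC, by their titles alone, and so 6 of the 24 libraries of the series. All cells came from Balb/c mice. The other groups of 3 used here for context are late GC, naive and in vivo activated B cells, and B cells activated in vitro entered only the filter on low values and the shared estimate of spread. No treatment, immunogen, day, age, sex or sort gate is named for any of these groups in the labels, which say that cells were purified with beads, stained and sorted. Nothing there says that libraries of a group came from separate mice. The p-values below rest on the spread between libraries within groups, pooled over all 24 libraries of the series, and that spread may be technical.

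Germinal centers are clusters of dividing B cells that form in follicles after antigen and T-cell help. Their cells mutate their antibody genes, are kept in the GC by receptors such as that encoded by S1pr2, and depend on the repressor encoded by Bcl6. Cells move between a dark zone, where they divide and mutate, and a light zone, where they meet antigen and T cells. In the mouse, B cells lose CD38 from the surface as they become GC cells.

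Each deposited file holds one log2 value per gene on a scale like CPM, the count of a gene scaled to a common library total. Genes at 0 log2 or more in at least 3 of the 24 libraries were tested with limma, and a gene is called here at a Benjamini-Hochberg adjusted p under 0.05, and said to have risen or fallen in peak GC only then. Of 11885 genes tested, 1568 were called (13.2%), 686 higher in peak GC (5.77%) and 882 lower (7.42%). The counts of list members below are to be read beside these shares. At least 2-fold changes were called for 99 genes higher (0.833%) and 262 lower (2.2%). The count depends on which libraries estimate the spread. With the 6 libraries alone, 610 genes were called (5.13%), 260 higher (2.19%) and 350 lower (2.94%), and 553 of the 1568 genes were called there in the same direction. Without early GC replicate 2, the full fit called 1034 genes. A replicate-number effect appears to have been removed before deposit, so the fit may count 2 degrees of freedom too many, and its SEs, intervals and p-values may be too small. With the replicate number as a block, 1182 genes were called, and of the genes described below as risen or fallen, Tox2 (limma adjusted p = 0.0663), Cd93 (0.0525), Gbp3 (0.0549), Egr1 (0.0525) and Slc4a1 (0.065) were not. The median change over all tested genes was 0.01 log2, with a median standard error (SE) of 0.10. Correlations across genes were 0.978 to 0.986 between an early and a peak library, and 0.986 to 0.992 within the peak and 0.990 to 0.991 within the early group.

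Transcripts used to mark GC cells were present in both groups. S1pr2 was at 8.81, 8.58 and 8.50 log2 in the early and 8.76, 8.71 and 8.73 in the peak libraries, against a naive mean of 3.18 and an in vivo activated mean of 1.31. Bcl6 was at 7.93, 7.66 and 7.41 log2 in early and 7.93, 7.66 and 7.82 in peak GC, against an in vivo activated mean of 2.71 and a naive mean of 6.72, which lies close to the GC libraries. For both genes the libraries of the groups overlapped and no difference was called (limma adjusted p = 0.593 and 0.691). The proliferation gene Mki67 did not pass either (difference 0.05 ± 0.11 SE, adjusted p = 0.825), nor did the dark zone receptor gene Cxcr4 (0.03 ± 0.33) or the light zone gene Cd83 (0.19 ± 0.07, adjusted p = 0.111). Other zone genes were called. Of 18 light zone genes 2 rose and 4 fell. Of 14 dark zone genes 0 rose and 1 fell, which was Foxp1. Cd86, of the light zone list, rose by 0.25 ± 0.07 log2 (limma adjusted p = 0.027, and 0.153 with the 6 libraries alone). It was called in 7 of the 14 alternative analyses. Of the same list, Lmo2 fell by 0.58 ± 0.09 log2 (called in 14) and Myc by 0.53 ± 0.10 (called in 13).

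Osbpl3, a member of the oxysterol-binding protein family, had the largest rise among the genes named by size. It was at 0.38, 0.40 and 0.65 log2 in the early libraries and 3.83, 3.58 and 3.81 in the peak libraries, a rise of 3.27 ± 0.24 (SE; adjusted p = 3.66e-09). Etl4 was at 1.92, 1.72 and 1.70 log2 in early and 4.82, 4.76 and 4.59 in peak GC, a rise of 2.94 ± 0.29. The rule for naming genes by size required every peak library of both to lie above every early one. The late GC mean was higher again, at 5.19 and 5.72 log2.

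Other genes named for the size of their rise were as follows. Rgs9, which speeds the switching off of G proteins, rose from 4.03, 3.76 and 3.84 log2 to 5.57, 5.76 and 5.72 (1.81 ± 0.17, adjusted p = 1.81e-07). Gnaz, a G-protein alpha subunit, rose by 2.03 ± 0.54 log2 (adjusted p = 0.0138), Emp2, a membrane protein with 4 spans, by 2.58 ± 0.53, and the cadherin-like receptor gene Celsr1 by 1.51 ± 0.25. The transcription factor gene Tox2 rose by 2.50 ± 0.79 (adjusted p = 0.0397), and the sodium channel gene Scn8a by 1.57 ± 0.47 (adjusted p = 0.0299). Tox2 was called in 5 of the 14 alternative analyses and lost its call when any one of the 6 libraries was left out, Scn8a was called in 9 and lost it without peak replicate 1 or 3 or early replicate 1 or 2, and Gnaz was called in 11 and lost it without peak replicate 1 or early replicate 3. The remaining genes of the 15 named for the size of their rise were Fam135a, Ranbp17, Kcns1, Nt5e, Ankrd33b, Serpinf1 and Basp1, with rises of 1.26 to 1.59 log2. Across the 15, the late GC mean was above the peak mean in 12, and the naive mean was below the early mean in 14.

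**Figure D1:**
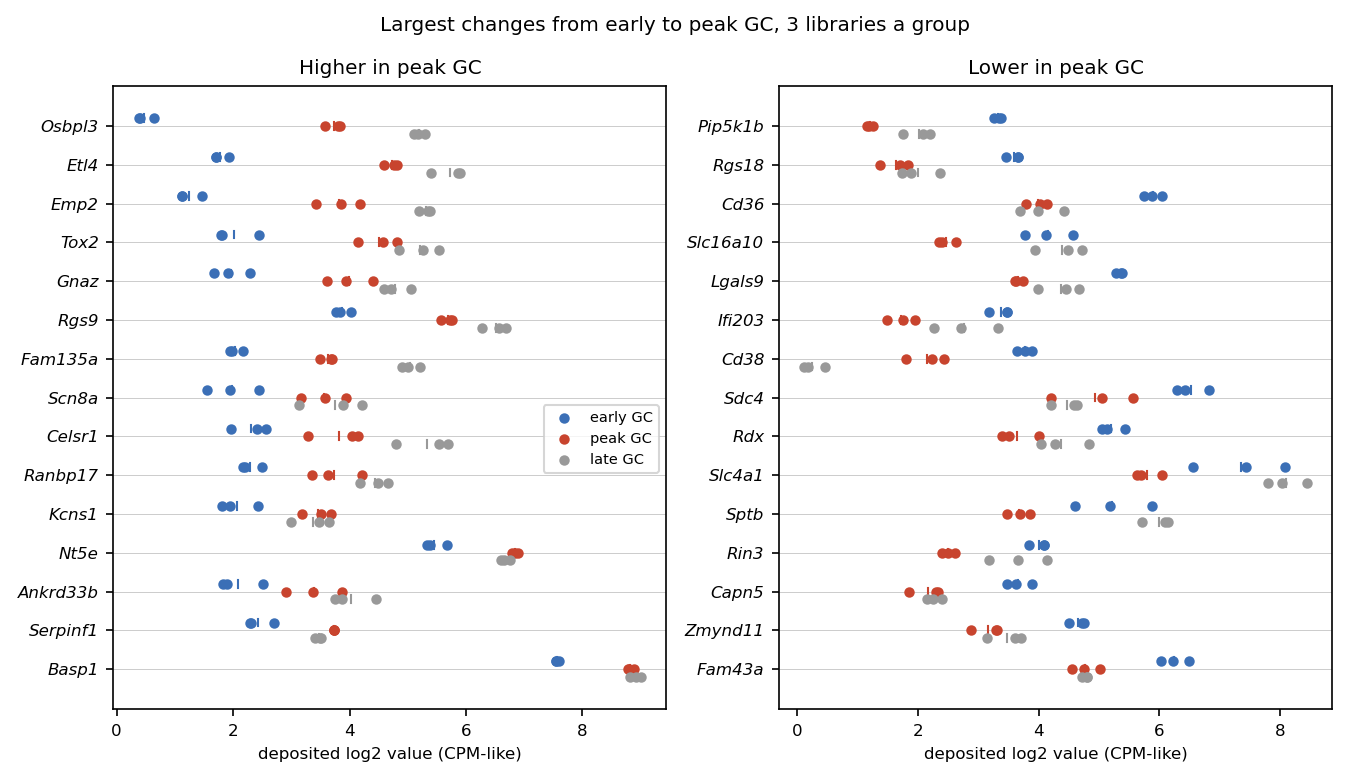
Deposited log2 values (horizontal axis, CPM-like) of the 15 genes with the largest rise and the 15 with the largest fall among those eligible to be named, with 3 points per group for the early, peak and late GC libraries and a short line at each mean. Early and peak points do not overlap in any of the 30 genes, which the naming rule required, and late GC points lie beyond the peak points on the right in most of the rising genes, such as Osbpl3 (late mean 5.19).

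More genes of the GC B-cell list rose than fell. Of 18 GC B-cell genes tested, 6 rose and 2 fell, with a median of 0.24 log2, and with the 6 libraries alone 4 rose and 2 fell. Basp1, a membrane-bound protein gene, was at 7.59, 7.54 and 7.54 log2 in early and 8.89, 8.79 and 8.78 in peak GC, a rise of 1.26 ± 0.11 (adjusted p = 9.42e-08). Rgs13, a G-protein regulator of GC cells, rose from 7.31 ± 0.10 to 8.23 ± 0.20 log2 (mean ± SD, n = 3), by 0.92 ± 0.14 (SE; limma adjusted p = 7.41e-05). Both genes stood lower still in naive cells, at means of 3.04 and 3.37 log2. The others that rose were Mef2b, a transcription factor gene acting upstream of Bcl6 (0.69 ± 0.12), Plxnb2, a semaphorin receptor gene (0.42 ± 0.07), the death receptor gene Fas (0.42 ± 0.12) and the DNA glycosylase gene Neil1 (0.28 ± 0.07), of which Mef2b, Plxnb2 and Neil1 were named after their values were seen. The 2 that fell were the transcriptional cofactor gene Lmo2, by 0.58 ± 0.09 log2, and Cd93, by 1.19 ± 0.34. Fas was not called with the 6 libraries alone (adjusted p = 0.0971) or without peak replicate 1 or 2 or early replicate 1 (0.0533 to 0.0977), Cd93 without peak replicate 1 or 2 or early replicate 1 or 3 (0.07 to 0.107), and Neil1 with the 6 libraries alone (0.0549) or without early replicate 3 (0.071).

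Genes of memory B cells and of contact with T cells moved in both directions. Nt5e, which encodes CD73, the enzyme that makes adenosine from AMP outside the cell, rose from 5.38, 5.32 and 5.67 log2 to 6.80, 6.84 and 6.90 (1.39 ± 0.22, adjusted p = 0.000102). Of 13 memory B-cell genes, 3 rose (Nt5e, Cd80 and Pdcd1lg2) and 4 fell (Cd38, Ccr6, Hhex and Zeb2). Over all genes tested, 5.77% rose and 7.42% fell. Pdcd1lg2 was not called without early replicate 2 (adjusted p = 0.0538), nor Zeb2 without peak replicate 1 or 2 or any one early library (0.054 to 0.107), nor Hhex with the 6 libraries alone (0.129), and Pdcd1lg2, Hhex and Zeb2 were named after their values were seen. Of 19 T-cell help and checkpoint molecules, 5 rose and 1 fell, but only 1 rose without early replicate 2, and 2 without peak replicate 2. The 1 that fell was Tnfsf4, the OX40 ligand gene, at -1.44, -1.83 and -1.83 log2 in early and -3.68, -5.92 and -3.77 in peak GC (adjusted p = 0.000166). It was under 1 CPM in all 6 libraries, passed the filter through other groups, and was not called with a pseudocount of 1 CPM (0.328). Tnfsf9, the 4-1BB ligand gene, was low, at 0.50, -0.04 and 0.33 log2 in early and 1.45, 1.97 and 1.40 in peak GC (1.34 ± 0.34, adjusted p = 0.0092), and lost its call without peak replicate 2 (0.0507) or early replicate 2 (0.0524). Cd80, a ligand of CD28, rose by 0.91 ± 0.20 log2, with an adjusted p of 0.0752 with the 6 libraries alone.

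Among 23 NF-kB target genes, 5 rose and 1 fell, with 3 rising without early replicate 2 and in the fit on the 6 libraries. The shares over all genes tested were 5.77% higher and 7.42% lower. The cytokine subunit gene Ebi3 rose by 0.86 ± 0.13 log2, and the survival genes Birc2 and Bcl2l1, which encode cIAP1 and BCL-XL, by 0.41 ± 0.07 and 0.43 ± 0.09. Nfkb1, a subunit of the factor itself, fell by 0.23 ± 0.05 log2, and was not called with the 6 libraries alone (adjusted p = 0.105). Bcl2, the survival gene of naive cells, went the other way from Bcl2l1, from 2.52, 2.45 and 2.42 log2 to 1.32, 1.55 and 1.57, a fall of 0.98 ± 0.11 (adjusted p = 1.32e-06).

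Genes of naive follicular B cells fell further in peak GC. Of 16 tested, 7 fell and 0 rose, with a median of -0.50 log2, and the fit on the 6 libraries called 7 lower as well. Cd38, an ectoenzyme gene used to separate GC from naive cells, was at 3.65, 3.88 and 3.78 log2 in early and 2.44, 2.23 and 1.81 in peak GC, a fall of 1.61 ± 0.11 (adjusted p = 1.85e-09). Ccr6, a chemokine receptor gene, fell from 2.79 ± 0.24 to 1.27 ± 0.25 log2 (mean ± SD, n = 3), by 1.52 ± 0.14 (SE). Both genes were lower again in late GC, at means of 0.25 and 0.54 log2, and far higher in naive cells, at 6.97 and 7.57. Gpr183, the oxysterol receptor gene that draws B cells to the outer follicle, fell by 0.90 ± 0.14, and Gpr174, a receptor gene from the list of chemokine, S1P and migration receptors and not of the 16, by 1.26 ± 0.22; these 2 were named after their values were seen. In bulk samples fewer cells of a type and less RNA per cell cannot be told apart, and whether the sort gates differed between the groups is not given in the sources used here.

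**Figure D2:**
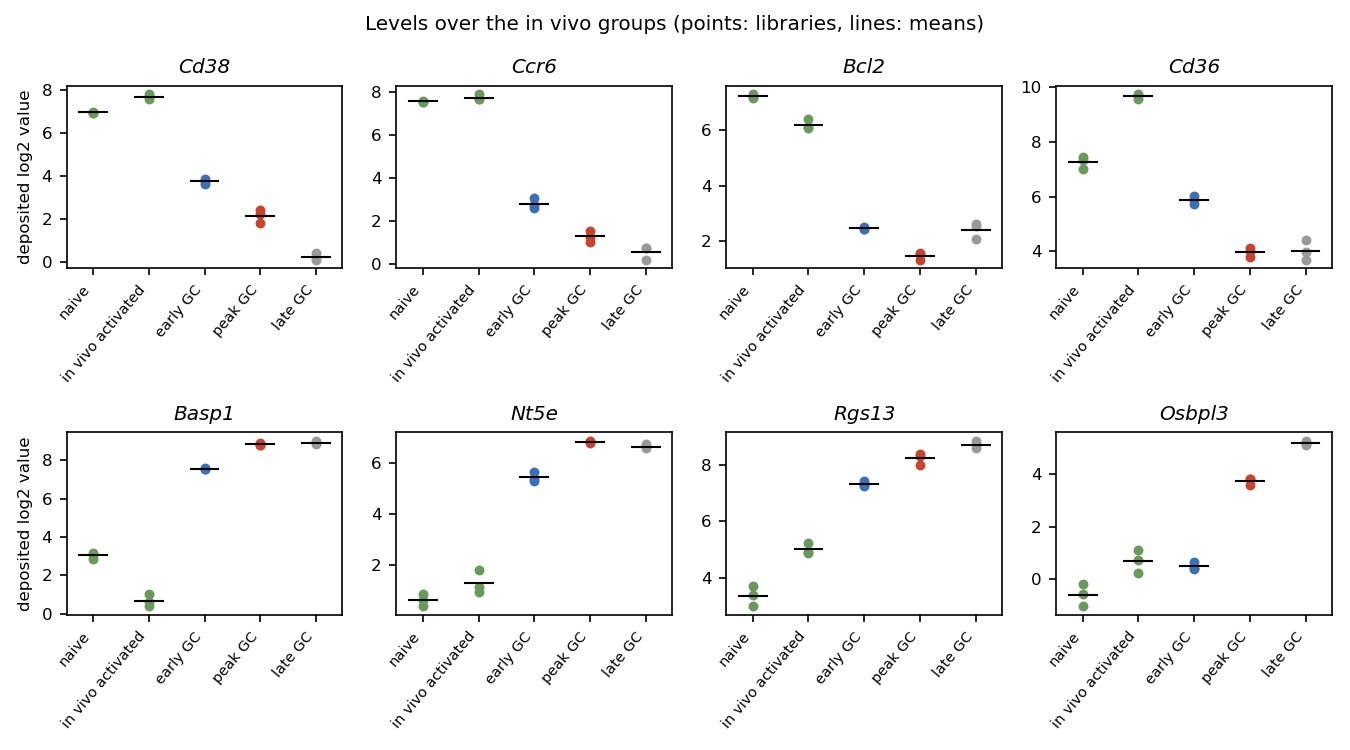
Deposited log2 values (vertical axis) of 8 genes in the naive, in vivo activated, early, peak and late GC groups, with points for the 3 libraries and a line at each mean. Cd38, Ccr6, Bcl2 and Cd36 are lower in peak than in early GC and highest in naive or in vivo activated cells, while Basp1, Nt5e, Rgs13 and Osbpl3 are higher in peak GC, and Bcl2 alone among the falling genes shown returns in late GC to near its early level (2.41).

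Marginal zone B-cell genes showed 3 falls and 0 rises among 11 tested, with a median of -0.57 log2. Over all genes tested, 7.42% fell and 5.77% rose. Notch2, the receptor gene required for that lineage, fell from 5.75, 5.96 and 5.91 log2 to 5.34, 5.08 and 4.75 (0.81 ± 0.14, adjusted p = 0.000336), and was named after its values were seen. All 3 genes that fell had a higher mean in naive cells than in early GC. The summed level of the list was 1175 to 1280 in early and 1177 to 1213 CPM-like units in peak GC, ranges that overlap.

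The largest fall among the genes named by size was that of Pip5k1b, a kinase gene for a membrane phosphoinositide, at 3.26, 3.38 and 3.34 log2 in early and 1.20, 1.26 and 1.15 in peak GC (fall of 2.12 ± 0.10, adjusted p = 1.77e-12). Rgs18, a G-protein regulator gene, fell by 1.95 ± 0.18, and Lgals9, which encodes galectin-9, by 1.69 ± 0.12. Further genes of this set were Slc16a10, an aromatic amino acid transporter gene, Sdc4, a syndecan gene, Rdx, which encodes radixin, and Rin3, Zmynd11, Capn5 and Fam43a, with falls of 1.47 to 1.70 log2. Slc16a10 was lowest in early replicate 1 (3.77 log2) and highest in early replicate 2 (4.58), the order of the erythroid sum given below. Its late mean of 4.38 log2 was above its early mean of 4.16, and any link to erythroid cells was not tested. In late GC, 12 of the 15 falling genes stood above their peak mean, and 12 stood below their early mean.

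Interferon response genes formed the list with the largest share of falls. These genes are switched on by interferon through the factor ISGF3, which binds promoter elements built from repeated GAAA. Of 28 genes, 27 were tested and 17 fell, and the median was -0.74 log2. Gbp3 was the 1 member that rose, by 0.28 ± 0.08 log2, and was not called with the 6 libraries alone (adjusted p = 0.11) or without peak replicate 1 or 3 or early replicate 1 or 2 (0.0603 to 0.0952). Without early replicate 2 the number that fell was 10, without early replicate 3 it was 11, and with the 6 libraries alone it was 9. Promoters are shown for 3 members that fell, Oas1a, Oas3 and Rsad2, and for 2 whose changes were not called, Isg15 and Stat2, to show that the element stands in both kinds. Each is the 250 bases before the RefSeq start (GRCm38.p6), 5′ to 3′ on the gene's strand, with each pair of GAAA, or of its reverse complement TTTC, spaced by any 2 bases (N) in capitals, and overlapping matches run together.
Oas1a, chr5:120907526-120907775, minus strand: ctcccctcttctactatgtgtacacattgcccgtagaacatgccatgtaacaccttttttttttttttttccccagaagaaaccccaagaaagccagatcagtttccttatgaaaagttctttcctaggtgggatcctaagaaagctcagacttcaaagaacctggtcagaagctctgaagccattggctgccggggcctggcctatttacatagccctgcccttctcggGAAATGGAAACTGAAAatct
Oas3, chr5:120777660-120777909, minus strand: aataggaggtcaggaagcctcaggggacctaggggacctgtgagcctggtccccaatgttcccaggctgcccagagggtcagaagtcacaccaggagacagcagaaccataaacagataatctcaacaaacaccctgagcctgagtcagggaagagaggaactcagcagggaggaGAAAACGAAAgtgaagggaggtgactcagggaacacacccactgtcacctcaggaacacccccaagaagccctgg
Rsad2, chr12:26456453-26456702, minus strand: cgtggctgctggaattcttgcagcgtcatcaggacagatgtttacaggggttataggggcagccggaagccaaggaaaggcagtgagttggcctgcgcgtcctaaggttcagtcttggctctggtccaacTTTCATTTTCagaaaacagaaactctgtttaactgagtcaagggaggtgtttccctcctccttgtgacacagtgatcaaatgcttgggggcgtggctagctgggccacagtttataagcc
Isg15, chr4:156200819-156201068, minus strand: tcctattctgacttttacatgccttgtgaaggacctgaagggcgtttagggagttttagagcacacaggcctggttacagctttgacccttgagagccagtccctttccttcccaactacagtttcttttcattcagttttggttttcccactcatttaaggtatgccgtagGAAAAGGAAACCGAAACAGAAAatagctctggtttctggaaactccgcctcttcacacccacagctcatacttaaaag
Stat2, chr10:128270248-128270497, plus strand: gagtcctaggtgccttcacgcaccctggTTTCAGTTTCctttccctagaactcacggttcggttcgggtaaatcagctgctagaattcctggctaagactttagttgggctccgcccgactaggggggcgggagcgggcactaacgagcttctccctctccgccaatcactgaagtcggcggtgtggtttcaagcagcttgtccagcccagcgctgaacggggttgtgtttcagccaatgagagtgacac

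Over windows from 250 bases before to 50 after the start, the pair of GAAA spaced by 2 bases was present on either strand in 13 of the 20 interferon response genes with a window (65%), against 3.99% of 27025 genes. The element was present in 8 of the 13 members that fell and in 5 of the 7 others. These shares describe the letters only.

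Among the sensors of viral RNA, Ddx58, which encodes RIG-I, fell from 3.53, 3.72 and 3.75 log2 to 2.87, 2.40 and 2.32 (1.14 ± 0.12, adjusted p = 7e-07), and Ifih1, which encodes MDA5, by 0.97 ± 0.18. Among the effectors, Oasl1 fell from 1.78, 1.77 and 1.93 log2 to 0.99, 0.43 and 0.72 (1.11 ± 0.14), Oas1a by 1.55 ± 0.33 and Mx2 by 1.42 ± 0.21. All of these were called with the 6 libraries alone as well. Rsad2, which encodes viperin, was uneven: it was at 0.62, 2.88 and 3.31 log2 in early and 0.50, 0.61 and -0.22 in peak GC (fall of 1.97 ± 0.52, adjusted p = 0.0128, and 0.153 with the 6 libraries alone). Early replicate 1 lay close to the peak libraries there, and the call was lost without early replicate 2 or 3 or peak replicate 3 (0.0571 to 0.0929). The signalling gene Stat2, which encodes a subunit of ISGF3, differed by -0.06 ± 0.12 log2 and was not called. Ifi203, an interferon-inducible gene outside the list, fell by 1.65 ± 0.19 log2, and like Oas1a it has close paralogs between which reads could be split. Ifih1, Oas1a, Oas3, Mx2, Rsad2, Isg15 and Stat2 were named after their values were seen.

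**Figure D3:**
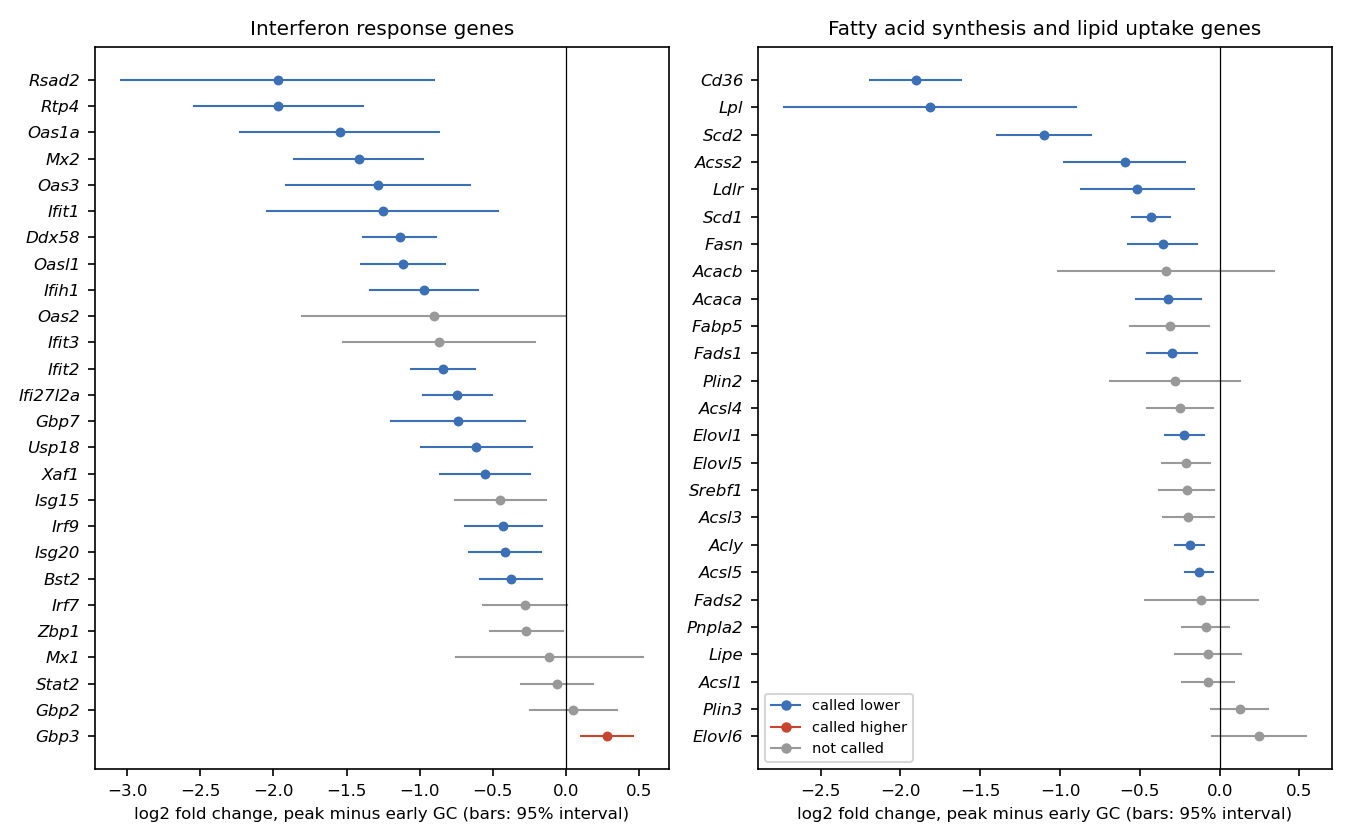
Log2 fold change of peak minus early GC (horizontal axis) for the tested interferon response genes (left, 27 tested, 1 uncalled gene not shown) and fatty acid synthesis and lipid uptake genes (right, 25), with 95% intervals as bars. Blue marks genes called lower, red called higher and grey not called; 17 interferon response genes and 12 lipid genes are blue, and the widest intervals belong to genes whose libraries scatter, such as Rsad2 and Lpl.

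Genes that take up and build fatty acids were lower in peak GC. Of 25 tested, 12 fell and 0 rose, with a median of -0.25 log2. Cd36, a receptor gene for fatty acids and lipoproteins, fell from 5.75, 6.04 and 5.88 log2 to 4.14, 4.02 and 3.79 (1.91 ± 0.14, adjusted p = 4.74e-09), and Scd2, a desaturase gene, from 7.30, 7.32 and 7.03 to 6.33, 5.95 and 6.05 (1.10 ± 0.14). For Scd2 every peak library lay below every early library, as for 12.1% of all genes tested. For Cd36 the rule for naming by size required this. Scd1 fell by 0.43 ± 0.06 and Acly, which makes acetyl-CoA in the cytosol, by 0.19 ± 0.04, the latter with an adjusted p of 0.128 with the 6 libraries alone. The count was 4 without early replicate 2, 7 without peak replicate 2, 7 without peak replicate 3 and 4 with the 6 libraries alone.

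Cholesterol synthesis genes showed the same direction at a smaller size. Of 21 tested, 6 fell and 0 rose, and 19 of 21 differences were negative, with a median of -0.21 log2. Fdps, which encodes farnesyl diphosphate synthase, fell from 6.70, 6.75 and 6.61 log2 to 6.43, 6.33 and 6.27 (0.34 ± 0.06, adjusted p = 0.00032). Dhcr7, Nsdhl and Mvd fell by 0.29 ± 0.07, 0.25 ± 0.06 and 0.29 ± 0.08 log2. With the 6 libraries alone only Fdps was called, and without peak replicate 1 the count was 10. Mvd was not called without peak replicate 3 (adjusted p = 0.0646) or early replicate 3 (0.0541). The CCAAT box, bound by the factor NF-Y, was present on either strand in 16 of the 17 genes of this list with a promoter window (94.1%), against 41.1% of all genes and 43.4% of genes tested. It was present in 4 of 4 members that fell and in 12 of the 13 others. The promoter of Mvd, a gene of the mevalonate pathway, is shown as one example, with CCAAT or its reverse complement ATTGG in capitals.
Mvd, chr8:122443423-122443672, minus strand: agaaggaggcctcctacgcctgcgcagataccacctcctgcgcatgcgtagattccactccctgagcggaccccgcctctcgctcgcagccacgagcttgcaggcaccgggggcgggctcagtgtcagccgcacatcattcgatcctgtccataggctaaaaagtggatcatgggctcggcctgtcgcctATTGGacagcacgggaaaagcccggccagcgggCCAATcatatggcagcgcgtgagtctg

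Transcripts of red cell precursors were present in these sorted B cells and differed between the groups. The summed level of the erythroid markers was 148, 398 and 273 CPM-like units in the early libraries and 82.7, 105 and 84.9 in the peak libraries, without overlap, and 351 to 531 in late GC. Of the 8 markers, 4 were tested, all 4 were negative and 2 fell: Slc4a1, the red cell anion exchanger gene, by 1.56 ± 0.48 log2, and Alas2, the erythroid haem synthesis gene, by 1.27 ± 0.31. The erythroid transcription factor gene Klf1 differed by -1.25 ± 0.52 and was not called, and the haemoglobin genes Hba-a1 and Hba-a2 were listed at the floor of the scale in all 6 libraries. Slc4a1 was called in 6 of the 14 alternatives and fell by 1.20 without early replicate 2 (adjusted p = 0.169), and its call was also lost without early replicate 3 or any one peak library (0.0565 to 0.0962). Alas2 was not called without early replicate 2 (0.0545). Sptb, which encodes the beta spectrin of red cells, fell from 4.61, 5.87 and 5.18 log2 to 3.69, 3.85 and 3.48 (1.55 ± 0.21), with early replicate 2 highest and early replicate 1 lowest among the early libraries, as in the erythroid sum.

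Macrophage and monocyte markers summed to 341, 280 and 207 CPM-like units in early and 132, 171 and 296 in peak GC, and to 550 to 2246 in late GC. Of 15 markers, 12 were tested and 0 were called by limma, 4 were at an unadjusted p under 0.05, 11 of the 12 differences were negative, and 0 of the 14 in the files were at the floor throughout a group. C1qa was at 0.58, 3.90 and 1.45 log2 in early and 0.47, 1.01 and -1.02 in peak GC, highest in early replicate 2. Lpl, the lipoprotein lipase gene of the lipid list, was at -0.49, 1.85 and 0.81 in early and -0.88, -0.73 and -1.66 in peak GC, and also highest in early replicate 2, without which its fall of 1.81 ± 0.44 log2 was not called (adjusted p = 0.0721). Neutrophil markers summed to 30.5 to 136 in early and 24.6 to 106 in peak GC, and B-cell markers to 6452 to 6948 and 5871 to 6965. The part of these cells in the falls of interferon response and lipid genes was not tested. Alas2, Klf1, C1qa and Lpl were named after their values were seen.

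**Figure D4:**
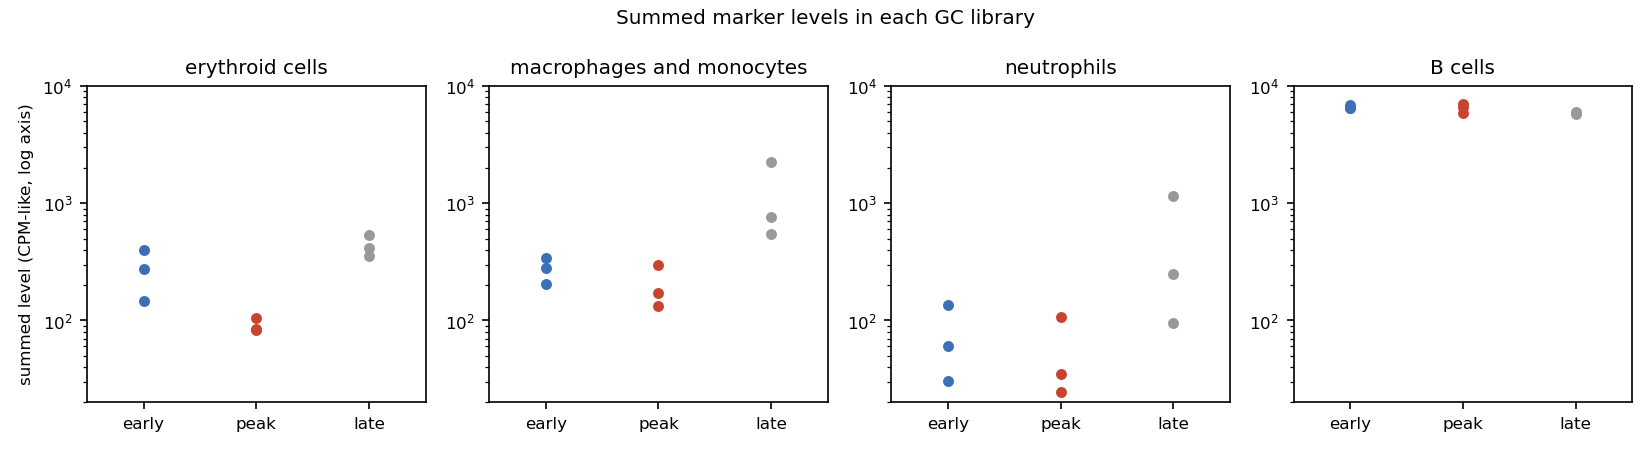
Summed level of each marker list (vertical axis, CPM-like units, log scale) in the 3 early, 3 peak and 3 late GC libraries, for erythroid cells, macrophages and monocytes, neutrophils and B cells. Erythroid sums are lower in all 3 peak libraries (82.7 to 105) than in the early libraries (148 to 398), macrophage and neutrophil sums overlap between early and peak, and B-cell sums stay between 5738 and 6965.

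Signalling genes that respond within minutes to receptor engagement were lower in part. Of 20 immediate-early genes, 4 fell and 0 rose, with a median of -0.29 log2, and 2 fell without early replicate 3, without peak replicate 1 and with the 6 libraries alone. Nr4a1, a nuclear receptor gene induced by the antigen receptor, fell from 8.55, 8.05 and 8.11 log2 to 7.29, 7.75 and 7.57 (0.70 ± 0.15), and Ier2 by 0.59 ± 0.09. Egr1 fell by 0.83 ± 0.24 although its libraries overlapped, and it was not called without early replicate 3, peak replicate 1 or peak replicate 3 (adjusted p = 0.0863 to 0.137). Myc, the growth regulator induced in selected light zone cells, fell from 7.13, 7.07 and 7.25 log2 to 6.29, 6.87 and 6.71 (0.53 ± 0.10, adjusted p = 0.000527, and 0.0684 with the 6 libraries alone). The interleukin 4 receptor gene Il4ra fell by 0.43 ± 0.08 log2, while Stat5a and Stat5b rose by 0.23 ± 0.05 and 0.27 ± 0.05, though neither was called with the 6 libraries alone (adjusted p = 0.103 and 0.0732).

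Other metabolic and regulatory lists held a few changes, in both directions. Of 24 TCA cycle genes 3 rose and 1 fell, and of 12 amino acid transport genes 2 rose and 3 fell. Over all genes tested, 5.77% rose and 7.42% fell. Suclg2 and Mdh1, of the first list, rose by 0.24 ± 0.04 and 0.21 ± 0.05 log2. Slc7a6 and Slc7a7, of the second, rose by 0.24 ± 0.05 and 0.40 ± 0.10. With the 6 libraries alone, 0 rose in either of these lists, and 1 and 3 fell. Aco1, the cytosolic aconitase gene that also senses iron, fell from 4.97, 5.06 and 5.05 log2 to 4.61, 4.59 and 4.49 (0.46 ± 0.06, adjusted p = 3.53e-06). The amino acid transporter gene Slc43a1 fell from 3.41, 4.31 and 4.07 log2 to 2.56, 2.72 and 2.44 (1.36 ± 0.19). Its early replicate 2 was highest and early replicate 1 lowest, the order seen in the erythroid sum. The early libraries of Cd36 and Pip5k1b stood in that order too. How many of all genes do so was not counted, and any link to erythroid cells was not tested. Foxp1 and Dnmt3a fell by 0.49 ± 0.07 and 0.50 ± 0.08 log2. Foxp1, a transcription factor gene of naive B cells, is the fall counted above in the dark zone list. Dnmt3a is a DNA methyltransferase gene. Aco1, Slc43a1, Foxp1 and Dnmt3a were called in all 14 alternatives.

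Lists of organelle and stress genes gave calls that the 6 libraries alone did not give. Beside them, 5.77% of all genes tested rose and 7.42% fell. Of 25 autophagy and lysosome genes 6 fell and 0 rose, but 1 fell without peak replicate 1 and 3 without early replicate 2. Of 23 unfolded protein response genes 5 fell and 1 rose, the latter being Herpud1, a gene of protein disposal at the endoplasmic reticulum, by 0.58 ± 0.12 log2 with overlapping libraries. Of 22 fatty acid oxidation genes 4 rose and 1 fell, with 1 rising without peak replicate 2 and 2 without early replicate 2, early replicate 3 or peak replicate 3. Acadl, which encodes a mitochondrial acyl-CoA dehydrogenase, rose by 0.25 ± 0.05 log2. With the 6 libraries alone, 0 genes of these 3 lists were called by limma.

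Lists of S phase, mitosis, antibody mutation and respiration genes gave no calls. Limma called 0 of 31 S phase genes, 0 of 31 mitosis genes and 0 of 25 antibody mutation and DNA repair genes, with 3, 0 and 2 at an unadjusted p under 0.05. Every 95% interval lay within -0.49 to 0.40 log2 for S phase, -0.42 to 0.62 for mitosis and -0.35 to 0.68 for mutation and repair. Of 36 complex I subunits and 34 subunits of complexes III, IV and ATP synthase, 0 were called, with 1 and 0 at an unadjusted p under 0.05 and intervals within -0.28 to 0.31 log2. The same held for 12 MHC class II presentation genes (2 at an unadjusted p under 0.05) and 22 serine, one-carbon and nucleotide synthesis genes (1). Over all genes tested 13.2% were called, so 0 calls in a list of 12 says little by itself. The fit on the 6 libraries also called 0 in each of these 7 lists. Another cell-cycle list did hold calls: of 23 cyclins, CDK inhibitors and E2F genes, 4 fell and 0 rose. The shares over all genes tested were 7.42% lower and 5.77% higher. The CDK inhibitor gene Cdkn1b fell by 0.83 ± 0.20 log2 with overlapping libraries (limma adjusted p = 0.00664, and 0.187 with the 6 libraries alone). With the 6 libraries alone, 0 genes of that list fell and 1 rose.

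**Figure D5:**
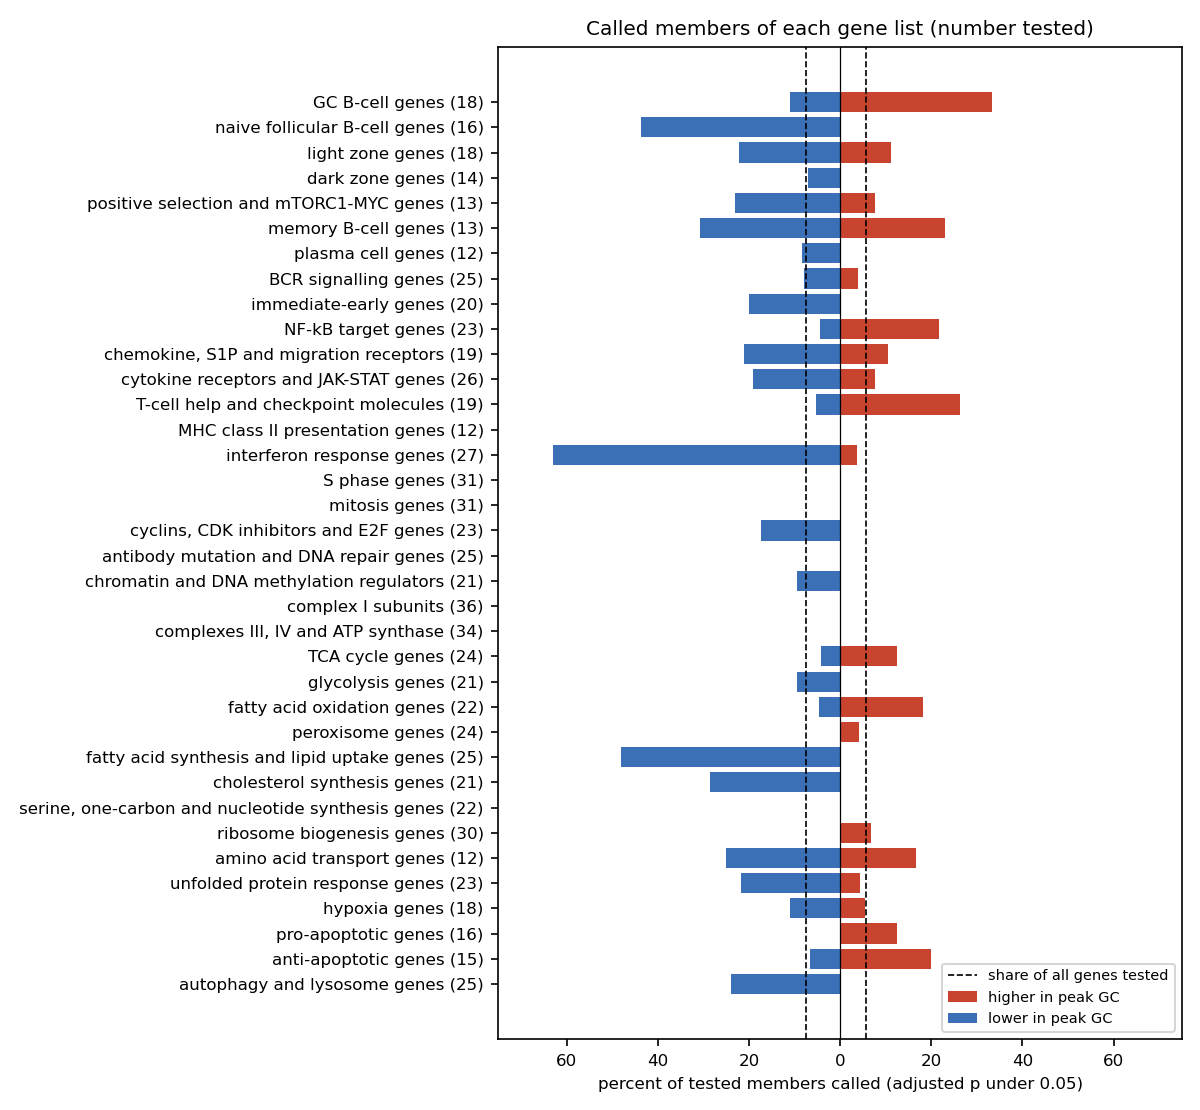
Percent of tested members of each of the 36 gene lists called higher (right, red) or lower (left, blue) in peak GC, with the number tested in brackets and dashed lines at the shares of all genes tested (5.77% higher, 7.42% lower). The longest bars to the left belong to interferon response (17 of 27), fatty acid synthesis and lipid uptake (12 of 25) and naive follicular genes (7 of 16), and 7 lists have no bar.

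The context groups were not part of the test. The late GC mean was above the mean of the 6 libraries in 67.9% of the genes higher in peak GC, 45.8% of those lower and 38.6% of all tested genes. For naive cells the shares were 39.9%, 77.7% and 50.3%, and for in vivo activated cells 38%, 69.8% and 51.2%. Genes that fell from early to peak GC thus stood above the level of these GC libraries in both of those groups more often than all tested genes did, a description to which no test was applied.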

How the data were processed

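Per the labels' protocols, sorted cells gave RNA (RNeasy Plus Micro), mRNA libraries (TruSeq Stranded mRNA) and Illumina NextSeq reads of 75 bases, in pairs. The authors name the mm10 genome and, in no stated order, STAR 2.6.0c, cutadapt 1.8.3, FastQC 0.11.5, limma, Subread 1.6.2 and its featureCounts, per the submitters' processing notes; counting options and limma steps are not given in the sources used here. The deposited values are log2 values on a CPM-like scale, read from the values: 2 to the power of the value summed to 992267 to 1001090 per library. Libraries share nearly one distribution, and for each gene the means over replicate numbers are equal within 0.0009 log2, so any effect of the replicate number had been removed before deposit, and p-values from a fit that does not count this may be too small. Depth per library is unknown, so no counting interval is given. Values under -5 log2 are called the floor.

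Limma 3.58.1 in R 4.3.3 was fitted to the deposited values with one mean for each of the 8 groups over 24 libraries, a variance trend and robust moderation (16 residual degrees of freedom), two-sided, adjusted over 11885 genes. Standard errors and 95% intervals come from this fit, which was tested on simulated data. Tables used pandas 2.3.3 and numpy 2.4.6, and figures matplotlib 3.10.9, under Python 3.11.15. Named genes were up to 15 in each direction with the largest change among called genes with at least a 2-fold change, a mean of 10 CPM or more in whichever group was higher, no overlap of libraries and a proper gene symbol; up to 4 called members of each of 36 lists by smallest p, at most 2 in each direction where both directions had calls; and 16 genes checking the labels. The comparison, lists and 11 marker lists were chosen with earlier results of these data known. Of 23420 symbols, 21571 matched RefSeq (GRCm38.p6) directly and 1713 by a synonym. Promoter windows are RefSeq's, and a gene with several starts counts as holding a motif if any window does. The 14 alternatives changed the libraries fitted, moderation, filter, pseudocount, centring or replicate block, or left out one library. Results for a few genes are not reported here.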

Additional observations from a re-analysis of the deposited data

How the results depend on the processing

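No named gene reversed under any of the 14 alternatives: of 1623 repeats over 116 named genes, 1365 kept their side of the threshold, 250 lost a call and 8 gained one. The fit on the 6 libraries (4 residual degrees of freedom) called 610 genes, 260 higher and 350 lower, 164 of them at least 2-fold lower. The fit on the 9 GC libraries called 587, 264 higher and 323 lower, 161 at least 2-fold lower. With a pseudocount of 1 CPM, 160 genes were called at least 2-fold, 48 higher and 112 lower, and with a stricter filter 239, 64 of them higher and 175 lower. Leaving out one library gave 1034 to 1549 genes called, 443 to 676 higher and 591 to 912 lower, with 271 to 407 at least 2-fold, 84 to 105 higher and 187 to 304 lower; the lowest total was without early replicate 2. Replicate numbers are shared between the groups, and whether they pair the libraries cannot be told: deviations of same-numbered early and peak libraries correlated at -0.33, -0.08 and -0.30, but the equal means over replicate numbers in the deposited values push these correlations below 0. With the replicate block, 1182 genes were called, 492 higher and 690 lower, and 315 at least 2-fold, 85 higher and 230 lower. That no library depth is known limits what can be said of low genes.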
